A study of Mus musculus with 4 samples.

Results

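Fatty acid oxidation and ketone body genes are described here in mouse liver: 42 genes for the transcription factor PPAR-alpha, for fatty acid uptake and activation, the carnitine shuttle, beta-oxidation in mitochondria and peroxisomes, electron transfer, acyl-CoA thioesterases, a ketone body step and some further PPAR-alpha targets. They were taken from a given list of symbols, as array probes that carry a RefSeq transcript of a listed gene, out of 23462 named genes on the array. All 42 had a probe. Whole-liver RNA of male mice was hybridized in a single red colour (Cy5) to Agilent mouse arrays, 1 array per group. The control array held liver of naturally aged mice, and the other 3 held liver of aged mice used as a model of type 2 diabetes: with no agent named on the diabetic array, given metformin on the metformin array, and given astragalus polysaccharide together with metformin on the combination array. Metformin lowers blood glucose, and astragalus polysaccharide is a plant carbohydrate preparation. The titles carry 60 d without saying what it counts from, and the number of mice behind an array, the way diabetes was brought about and the doses are not stated in the sources used here. With 1 array per group there are no replicates, so no difference below has a replicate check or a p-value, and each compares those arrays and not the conditions.

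Fatty acids entering a hepatocyte are bound by a carrier protein, joined to coenzyme A by acyl-CoA synthetases, carried into mitochondria as carnitine esters and shortened in rounds of dehydrogenation, hydration, a further dehydrogenation and thiolysis. Very long and branched chains are first shortened in peroxisomes, and thioesterases release free fatty acids from coenzyme A again. In fasting liver the acetyl-CoA made this way feeds ketone body synthesis, and PPAR-alpha, a receptor for fatty acids, switches on many of these genes by binding with RXR to paired copies of a short motif.

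Promoter stretches are printed for the only listed gene whose window held the paired motif and for 3 thioesterase genes that were lowest on the control array. RefSeq promoter windows of GRCm38.p6, running from 250 bases before to 50 bases after a gene's start, were available for 37 of the 42 genes (41 windows) and for 32851 windows in all. On both strands, the strict paired motif, 2 copies of AGGTCA running the same way with 1 base between them, was in 13 of all windows (0.0396%) and in 0 of the 41 listed ones. Its looser form, the same arrangement of AGGNCA, which includes every match of the strict form, was in 125 of all windows (0.381%) and in 1 of the 41, that of Fabp1. The single hexamer AGGTCA, which also lies within the strict paired motif and was searched after the other results were seen, was in 16.3% of all windows and in 9 of the 41 (22.0%), which belong to Acadm, Acadvl, Acot3, Acot4, Cpt1a, Echs1, Fabp1 and Slc27a2. The 250 bases before the start are printed for Fabp1 (chr6:71199629-71199878, plus strand) with the looser paired motif in capitals, at positions -67 to -55 and on the minus strand. Those of Acot1 (chr12:84009252-84009501), Acot3 (chr12:84051894-84052143) and Acot4 (chr12:84038129-84038378), all on the plus strand, have the single hexamer in capitals where the printed bases hold it, which is only in Acot4, at -13 to -8 and on the minus strand. The Acot genes were chosen for printing after their values were seen. A match describes letters and is not a binding site.
Fabp1: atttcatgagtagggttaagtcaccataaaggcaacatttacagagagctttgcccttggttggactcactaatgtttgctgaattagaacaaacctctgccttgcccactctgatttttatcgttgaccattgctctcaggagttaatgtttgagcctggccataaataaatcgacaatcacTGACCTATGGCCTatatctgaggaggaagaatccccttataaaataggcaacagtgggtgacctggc
Acot1: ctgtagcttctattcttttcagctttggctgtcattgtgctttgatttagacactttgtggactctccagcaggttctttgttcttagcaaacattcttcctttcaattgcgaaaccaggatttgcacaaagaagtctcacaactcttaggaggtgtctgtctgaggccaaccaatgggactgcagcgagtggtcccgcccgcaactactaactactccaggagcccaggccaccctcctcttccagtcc
Acot3: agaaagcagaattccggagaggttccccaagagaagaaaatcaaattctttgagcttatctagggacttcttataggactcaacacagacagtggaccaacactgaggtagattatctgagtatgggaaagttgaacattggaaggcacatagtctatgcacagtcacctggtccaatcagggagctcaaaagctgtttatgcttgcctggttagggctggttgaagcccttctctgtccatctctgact
Acot4: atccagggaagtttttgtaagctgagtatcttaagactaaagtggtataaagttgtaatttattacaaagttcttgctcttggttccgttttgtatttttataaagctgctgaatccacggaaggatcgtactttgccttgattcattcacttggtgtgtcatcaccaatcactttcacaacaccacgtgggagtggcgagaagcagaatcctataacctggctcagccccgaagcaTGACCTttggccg

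A level below is the log2 of a probe's processed intensity minus the array's 75th percentile, taken over the 24363 probes measured well above background on all 4 arrays, so a level of 0 is a bright probe. That percentile was an intensity of 6520 (control), 7325 (diabetic), 8095 (metformin) and 7953 (combination). Arrays correlated at 0.950 to 0.965 over those probes. Spots flagged as outliers, which were left out, made up 2.18% to 5.35% of spots on an array. Repeated spots of the same probe gave a technical SD of 0.11 for a log2 difference between 2 arrays, and different probes of 1 gene disagreed with a median SD of 0.19 to 0.24. Neither covers differences between mice or RNA preparations. The control array stood apart in its markers of acinar pancreas, whose summed level was 33.6 times the array's 75th percentile over 11 genes, against 3.88 (diabetic), 8.82 (metformin) and 2.12 (combination). Lymphocyte markers (12 genes) summed to 5.10 on the metformin array and to between 0.672 and 1.64 on the others. The part of either in the results below was not tested. Hepatocyte markers summed to 96.3, 78.6, 64.3 and 79.1 over the control, diabetic, metformin and combination arrays (10 genes on 12 probes). In whole tissue, fewer cells of a type and less RNA per cell cannot be told apart.

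The 42 genes were read by 60 probes, 1 spot each: 26 genes by 1 probe, 14 by 2 and 2 by 3. Most lay above the 75th percentile of their array, namely 32 of 39 measured genes (control), 33 of 37 (diabetic), 30 of 35 (metformin) and 33 of 41 (combination). Outlier flags took 16 probes of 15 genes from at least 1 array, so 33 genes had a value on all 4. Acot2, a mitochondrial acyl-CoA thioesterase, had no unflagged spot on any array, and Acadm, the medium-chain acyl-CoA dehydrogenase, had one only on the combination array. Between their highest and lowest array the 33 genes spanned a median of 1.37-fold. For 23 of them the span was under 1.5-fold, for 4 it was between 1.5-fold and 2-fold, and for 6 it was at least 2-fold. The control array was the highest for 20 of the 33 and the metformin array the lowest for 21. The commonest order, held by 11 genes, ran from metformin through diabetic and combination to control. The places of the control and metformin arrays in these orders depend on the scaling. Under spike-in scaling 20 of 36 listed genes were above control on the diabetic array, 26 of 35 on the metformin array and 29 of 39 on the combination array. With quantile normalization these were 24 of 36, 15 of 35 and 27 of 39.

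**Figure D1:**
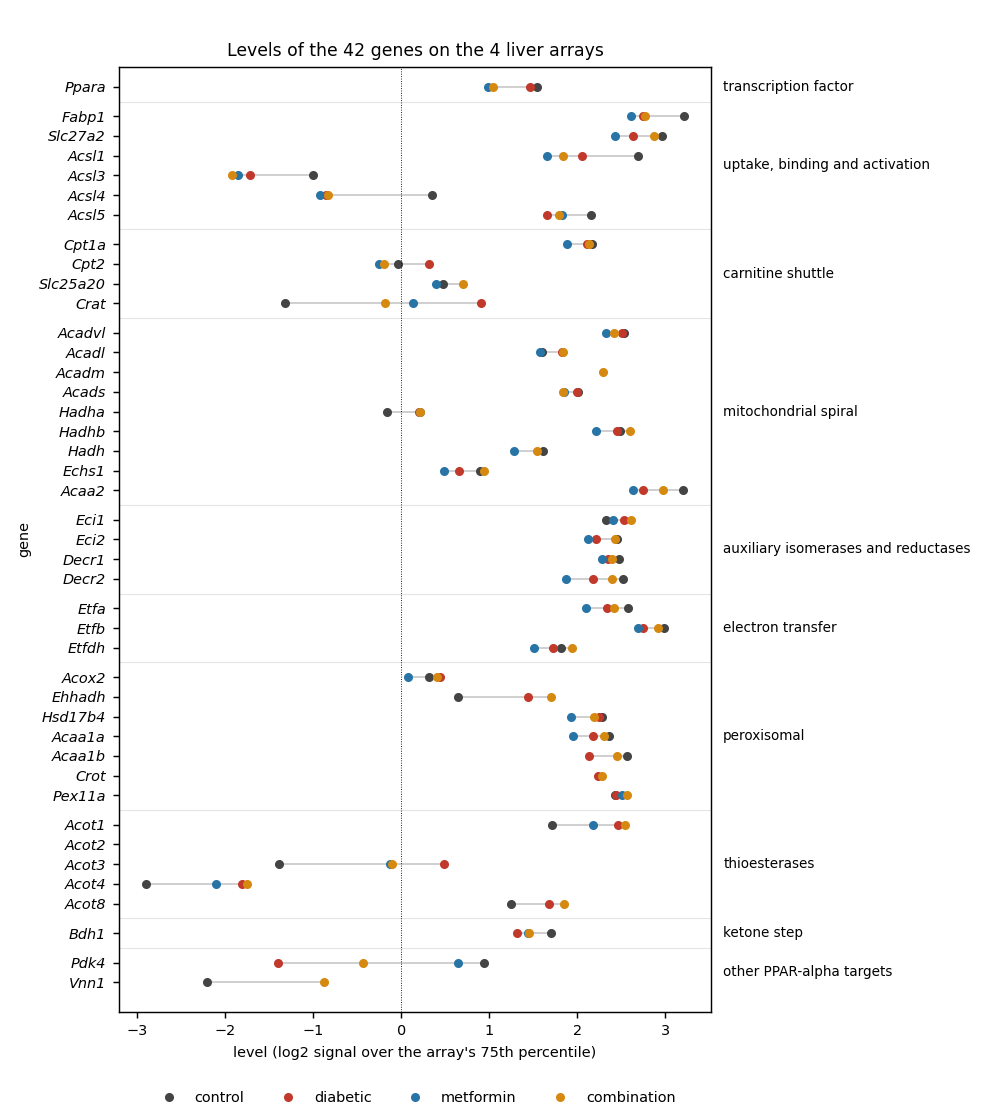
Levels of the 42 listed genes over the control, diabetic, metformin and combination arrays, as log2 signal over the array's 75th percentile (dotted line at 0), grouped by role; a point is the mean over the probes that are unflagged and above background on every array where the gene is measured, and a grey line joins its lowest and highest array. Most genes sit well above 0 with their points close together, while Crat, Acot3, Pdk4 and Acsl4 spread widely.

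The diabetic and the naturally aged liver were compared first. On the diabetic array the carnitine acetyltransferase gene Crat was 4.66-fold higher and the thioesterase genes Acot3, Acot4 and Acot1 were 3.66-fold, 2.14-fold and 1.68-fold higher, with the peroxisomal Ehhadh 1.73-fold higher. Pdk4, a kinase that shuts off pyruvate dehydrogenase, was 5.05-fold lower, and the acyl-CoA synthetase genes Acsl4, Acsl3 and Acsl1 were 2.32-fold, 1.64-fold and 1.56-fold lower. The core mitochondrial beta-oxidation enzymes differed by less than 1.5-fold. A value on both arrays was available for 36 listed genes: 5 of them passed 1.5-fold upward and 4 downward, where 14.8% and 12.8% of all 13475 measured genes did, so the counts lie near those of all genes. At 2-fold the counts were 3 higher and 2 lower, where 6.81% and 4.96% of all genes were. Of the 3447 genes above the 75th percentile, where most listed genes lie, 133 were at least 1.5-fold higher and 235 lower. At 2-fold it was 28 and 70, and all of these are smaller shares than in the list. The listed genes had a median log2 difference of -0.092, with 12 above 0 and 24 below, beside -0.051 for all genes and -0.15 for the 3447 genes above the 75th percentile, and 3 of the 11 other processing settings, spike-in scaling among them, turned the listed genes' median above 0. Under spike-in scaling Acsl1 (-0.46) and Acsl3 (-0.54) no longer passed 1.5-fold, and on its brighter probe Acsl1 was at -0.42. Acsl1 also fell short with quantile normalization (-0.38), the authors' value table (-0.37) and each array's own 75th percentile (-0.58).

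Ppara itself, the gene of PPAR-alpha, had 2 probes, with levels of 1.43 and 1.67 (control), 1.30 and 1.63 (diabetic), 0.80 and 1.17 (metformin) and 0.76 and 1.33 (combination). Both probes were lower on the metformin and combination arrays than on the control and diabetic ones. The diabetic array differed from the control by only -0.084, within the technical SD.

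The 6 genes of uptake, binding and activation were all lower on the diabetic array, with a median log2 difference of -0.57, and all that had a value were so under each of the 11 other processing settings (medians of -0.63 to -0.32). Fabp1, the liver's main fatty acid binding protein, had levels of 3.22 (control), 2.75 (diabetic), 2.61 (metformin) and 2.77 (combination). It was highest on the control, and the other 3 lay close together. Its promoter is the one printed above with the paired motif. Slc27a2, a transporter and very long-chain acyl-CoA synthetase, stood at 2.96, 2.63, 2.43 and 2.88 in the same order. There the combination array came near the control.

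Among the long-chain acyl-CoA synthetases, Acsl4, which prefers polyunsaturated fatty acids such as arachidonate, had levels of 0.58, -0.64, -0.69 and -0.52 on 1 probe and 0.13, -1.08, -1.15 and -1.13 on another, in the order control, diabetic, metformin, combination. Both probes place the control array alone above the other 3. The remaining Acsl4 probe, flagged on the diabetic and metformin arrays, read 2.00 on the control and 1.51 on the combination array. Acsl1, the major synthetase of liver, stood at 3.14, 2.72, 2.34 and 2.77 on 1 probe and at 2.24, 1.38, 0.98 and 0.90 on the other. Both are highest on the control, and they disagree on whether the combination array lies above the metformin array. Acsl3, which supports lipid droplet growth, had levels of -1.0, -1.72, -1.85 and -1.92. Acsl5, a synthetase of mitochondria and endoplasmic reticulum, had 2.15, 1.65, 1.83 and 1.80. For all 4 synthetase genes the control array was the highest. Against it their median log2 difference was -0.68 for the diabetic array, -0.94 for the metformin array and -0.89 for the combination array, and all 4 were lower in each case, except that Acsl5 on the metformin array turned to 0.12 when arrays were scaled by spike-in probes. These comparisons share the control array, on which the acinar pancreas markers were highest, and hepatocyte markers differed by a median of -0.34 between the diabetic array and it (10 of 11 genes lower, and 6 of 11 under quantile normalization). Markers of other liver cells were lower on the diabetic array by more, with medians of -0.63 for Kupffer cells (9 of 10 lower), -0.69 for stellate cells and matrix (8 of 10), -0.59 for sinusoidal endothelial cells (8 of 8) and -1.18 for lymphocytes (10 of 10), and these medians stayed below 0 in the 11 other settings. In the setting used here, hepatocyte markers also differed from control by a median of -0.58 on the metformin array (11 of 11 lower). On the combination array it was -0.26 (7 of 10 lower). Lymphocyte, stellate cell, Kupffer cell and sinusoidal endothelial medians were 1.39, 0.42, 0.025 and -0.079 on the metformin array. On the combination array they were -0.55, -0.54, -0.93 and -0.16. The part of these markers was not tested.

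The carnitine shuttle genes did not share a direction. Cpt1a, the outer-membrane enzyme that sets the rate of entry, had levels of 2.17 (control), 2.11 (diabetic), 1.89 (metformin) and 2.13 (combination). Only the metformin array stood lower, by a log2 difference of -0.22 against the diabetic. Cpt2, which re-forms acyl-CoA inside the mitochondrion, read 2.16, 2.21, 1.82 and 1.95 on 1 probe and -2.24, -1.56, -2.33 and -2.33 on the other. The probes agree that the diabetic array was the highest but differ over the size, 0.05 or 0.68 above the control. Slc25a20, the carnitine-acylcarnitine translocase, stood at 0.48 (control), 0.40 (metformin) and 0.70 (combination) and was flagged on the diabetic one.

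Crat, which moves acetyl groups between coenzyme A and carnitine, was the listed gene that was furthest above control on the diabetic array. Its brighter probe had levels of -1.32 (control), 0.90 (diabetic), 0.14 (metformin) and -0.18 (combination). The diabetic array was the highest, the 2 treated arrays lay between, and the control was the lowest. A dim second probe read -5.03 on the diabetic and -6.11 on the metformin array and was not well above background on the control and combination arrays, where it read -6.15 and -6.59. The log2 difference of the diabetic array from the control, 2.22, ranged from 1.67 to 2.39 over the other settings. Its difference of 1.13 between the combination and control arrays fell to 0.34 when the dim probe was counted as well.

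The mitochondrial spiral lay close to control on the diabetic array, with a median log2 difference of -0.012 between the diabetic and control arrays over 7 measured genes, 2 above 0 and 5 below, and 5 of the 11 other settings put that median above 0. Acadvl, the very long-chain acyl-CoA dehydrogenase, had levels of 2.53, 2.52, 2.33 and 2.42 over the control, diabetic, metformin and combination arrays. Acads, its short-chain counterpart, had 2.01, 2.00, 1.85 and 1.84. Neither separated the diabetic array from the control. Acadl, the long-chain dehydrogenase, differed by 0.23 and Hadhb, the thiolase subunit of the trifunctional protein, by -0.032. Hadha, the subunit that carries the hydratase and dehydrogenase activities, had levels of -0.16, 0.20, 0.21 and 0.21. It was lower on the control than on the other 3 arrays. Hadh, the dehydrogenase of short chains, stood at 1.61 (control), 1.29 (metformin) and 1.55 (combination) and was flagged on the diabetic array. Echs1, the short-chain enoyl-CoA hydratase, differed by -0.23 between the diabetic and control arrays. Acaa2, the mitochondrial thiolase, was highest on the control and lowest on the metformin array, at 3.21, 2.74, 2.63 and 2.98.

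Auxiliary enzymes and electron carriers followed the same narrow range. The enoyl-CoA isomerases Eci1 and Eci2 and the dienoyl-CoA reductases Decr1 and Decr2, which handle unsaturated fatty acids, differed between the diabetic and control arrays by 0.21, -0.24, -0.12 and -0.35. Decr2, the peroxisomal reductase, had levels of 2.52 (control), 2.17 (diabetic), 1.88 (metformin) and 2.39 (combination). The metformin array was the lowest, by 1.56-fold against control. Etfa, Etfb and Etfdh, which pass electrons from acyl-CoA dehydrogenases to the respiratory chain, differed by -0.24, -0.23 and -0.10, and quantile normalization and the authors' value table turned the median of the 3 above 0.

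In the peroxisome, Ehhadh, the bifunctional enzyme of the inducible pathway, was the only 1 of the 6 genes of this group measured on the diabetic and control arrays to pass 1.5-fold between them. It had levels of 0.65 on the control, 1.44 on the diabetic and 1.71 on the combination array, and its spot was flagged on the metformin array. Both diabetic-model arrays measured lay above the control, and in the other settings the diabetic array stayed 0.60 to 0.96 above it. Hsd17b4, the enzyme of the branched-chain pathway, had 2.28, 2.25, 1.94 and 2.20, with only the metformin array apart. Acox2, an oxidase of branched chains and bile acid precursors, and Pex11a, a factor of peroxisome division, differed between the diabetic and control arrays by 0.13 and 0.013. The thiolases Acaa1a and Acaa1b differed by -0.19 and -0.43. Crot, which makes carnitine esters for export from the peroxisome, was measured only on the diabetic and combination arrays, at 2.24 and 2.28.

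All 4 measured acyl-CoA thioesterase genes were higher on the diabetic array than on the control, by a median log2 difference of 0.92, and no other setting changed that sign (medians of 0.75 to 1.1). Acot1, the cytosolic enzyme, had levels of 1.72 (control), 2.46 (diabetic), 2.18 (metformin) and 2.54 (combination). Acot4, a peroxisomal enzyme, had -2.91, -1.81, -2.11 and -1.75. In both genes the control array was the lowest, and the diabetic and combination arrays lay closest together. Acot3, also peroxisomal, read 0.83, 1.72, 1.39 and 1.56 on its brighter probe and -3.60, -0.75, -1.64 and -1.77 on the other. The 2 probes share the order control lowest and diabetic highest, but the diabetic array was 0.89 above control on the first and 2.85 on the second. Acot8, a peroxisomal enzyme of broad range, had 1.25 on the control, 1.67 on the diabetic and 1.85 on the combination array and was flagged on the metformin array. Acot1, Acot3 and Acot4 are close relatives on chromosome 12 whose promoters are printed above, and cross-hybridization between them was not tested, because probe sequences were not used here.

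**Figure D2:**
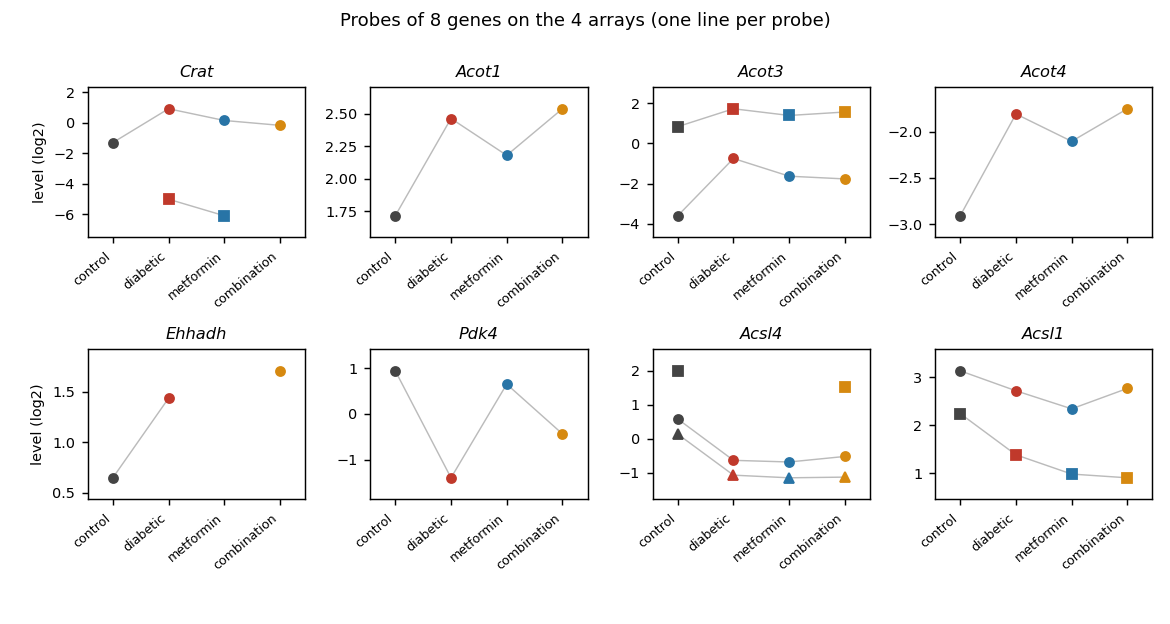
Levels (log2 over the array's 75th percentile) of each measured probe of 8 genes on the 4 arrays, 1 line and marker shape per probe; each panel has its own vertical range. Crat, the Acot genes and Ehhadh are lowest on the control array, Acsl4 and Acsl1 are highest there, and Pdk4 is lowest on the diabetic array.

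Bdh1, the ketone step of the list, makes beta-hydroxybutyrate from acetoacetate in mitochondria. Its 2 probes had levels of 1.60 and 1.81 (control), 1.19 and 1.46 (diabetic), 1.37 and 1.52 (metformin) and 1.37 and 1.52 (combination). Both were highest on the control and lowest on the diabetic array, a span of 1.30-fold. Pdk4 had levels of 0.94 (control), -1.40 (diabetic), 0.65 (metformin) and -0.44 (combination). The diabetic array was far the lowest, and the combination array lay between it and the other 2. Vnn1, a pantetheinase that PPAR-alpha induces, was measured on the control and combination arrays only, at -2.21 and -0.88.

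**Figure D3:**
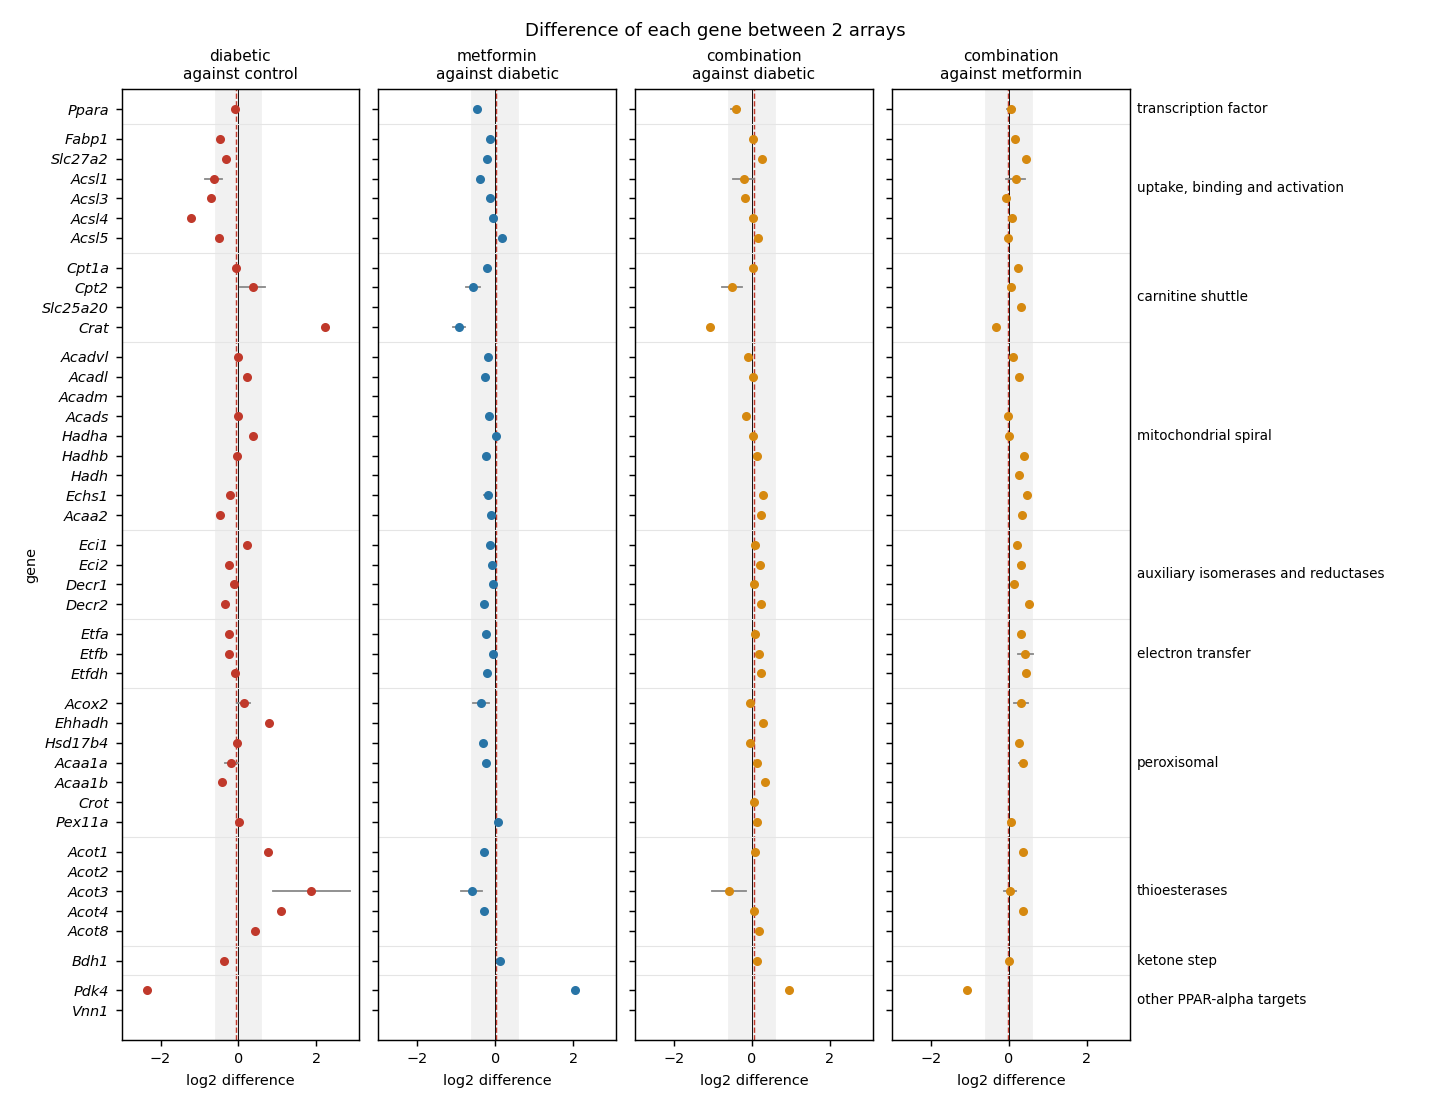
Log2 difference of each listed gene in 4 comparisons between 2 arrays, grouped by role; the grey bar spans the gene's probes, the shaded band is a change of less than 1.5-fold and the dashed line the median of all genes. The thioesterase genes and Crat lie to the right and the Acsl genes and Pdk4 to the left on the diabetic array against control, and most genes lie a little left of 0 on metformin against diabetic and a little right of 0 on combination against metformin.

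The next comparisons ask how the treated livers differed from the diabetic one. They share the diabetic array with the first comparison, so a gene that is far out on that array alone appears in all of them with turned sign, and the values are given side by side without reading agreement into them. On the metformin array Pdk4 was 4.13-fold higher than on the diabetic array, while Crat was 1.90-fold (mean of its 2 probes) and Acot3 1.52-fold lower. On its brighter probe alone Acot3 differed by -0.33, below 1.5-fold, and by as much under spike-in scaling. Cpt2 was 1.49-fold lower, at -0.39 on its brighter probe and -0.76 on the other. Its mean log2 difference of -0.58 ranged from -0.69 to -0.30 over the other settings. Ppara was 1.39-fold lower, and its log2 difference, -0.48, ranged from -0.59 to -0.20 over those settings. Among 33 genes with a value on both, 1 passed 1.5-fold upward and 2 downward, where 19.4% and 7.8% of all 13900 genes did. At 2-fold it was 1 upward (Pdk4) and 0 downward, against 10.7% and 2.52%. Of the 3408 genes above the 75th percentile, where most listed genes lie, 129 were at least 1.5-fold higher and 122 lower. The other listed genes differed little but mostly downward: 28 of the 33 were below 0, with a median of -0.21 beside 0.026 for all genes and -0.083 for the 3408 genes above the 75th percentile, and spike-in scaling turned that median to 0.070 with 10 of 33 below 0.

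By place, with Eci2, Decr2, Acot3, Acot4 and Acot8 among the peroxisomal genes, 14 of 15 mitochondrial and 7 of 8 peroxisomal genes were lower on the metformin array than on the diabetic, with medians of -0.19 and -0.30, although spike-in scaling left only 2 of 15 and 5 of 8 lower. The median of the 3 electron transfer genes was -0.21 and that of the 3 measured thioesterase genes -0.29, the first of which also turned above 0 under spike-in scaling. Hepatocyte markers were displaced the same way, with 11 of 11 lower and a median of -0.27, which became 5 of 11 under spike-in scaling. Markers of other cells were higher on the metformin array, with medians of 2.91 for lymphocytes (10 of 10 higher), 1.63 for stellate cells and matrix (10 of 10), 0.65 for Kupffer cells (7 of 11) and 0.63 for sinusoidal endothelial cells (8 of 8), and above 0 in the other settings. Their part in the result was not tested. Relative to all genes, the listed genes' median was lower by 0.23 in log2 in the setting used here, and over the other settings the same quantity lay between -0.23 and -0.13. Settings that only shift a whole array, such as spike-in scaling and median centring, cannot change that quantity. The value of -0.13 came from quantile normalization and from the authors' value table.

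The combination array lay close to the diabetic one for most of the list. Against the diabetic array Pdk4 was 1.94-fold higher, Crat was 2.13-fold lower and Acot3 1.51-fold lower, and no other of the 37 measured genes passed 1.5-fold. Acot3 passed on the mean of probes at -1.02 and -0.16, so its brighter probe alone would not. That is 1 gene higher and 2 lower, where 12.2% and 12.9% of all 14108 genes were. Past 2-fold there were 0 higher and 1 lower (Crat), against 4.11% and 5.67%. Of the 3524 genes above the 75th percentile, where most listed genes lie, 150 were at least 1.5-fold higher and 160 lower. The median of the listed genes was 0.075, with 27 genes above 0 and 10 below, beside 0.051 for all genes and 0.062 for those 3524 genes. The sign of the listed genes' median is not settled, as scaling by each array's own 75th percentile put it at -0.18. Hepatocyte markers had a median of 0.021 (6 of 10 higher). Lymphocyte (0.77), sinusoidal endothelial (0.50) and stellate cell (0.44) medians lay above 0 and that of Kupffer cells (-0.19) below. The part of these markers was not tested. Ppara was 1.34-fold lower on the combination array than on the diabetic, and its log2 difference of -0.42 ranged from -0.67 to -0.30 over the other settings.

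Set directly against the metformin array, the combination array was higher in 29 of 35 listed genes, with a median log2 difference of 0.24 beside -0.023 for all genes and 0.12 for the 3524 genes above the 75th percentile, while spike-in scaling turned the median to -0.035 with 14 of 35 above 0. Past 1.5-fold there were 0 of the 35 upward and 1 downward, Pdk4 (2.12-fold lower), where 7.46% and 20% of all 14363 genes were. The same counts hold past 2-fold, against 1.69% and 10.6%. Among the genes above the 75th percentile, where most listed genes lie, 152 of 3524 were at least 1.5-fold higher and 144 lower. All 8 measured peroxisomal genes were higher on the combination array, with a median of 0.31, and so were 14 of 17 mitochondrial ones, with a median of 0.26, although under spike-in scaling these were 5 of 8 and 7 of 17. Decr2 led with a difference of 0.52, then Echs1 with 0.46 and Slc27a2 with 0.45. The 3 electron transfer genes had a median of 0.42, above 0 in every setting (0.14 to 0.52). Hepatocyte markers were again displaced the same way, with 10 of 10 higher and a median of 0.29 (6 of 10 under spike-in scaling). Markers of lymphocytes (median -2.05, 9 of 10 lower), stellate cells and matrix (-0.99, 9 of 10) and Kupffer cells (-0.81, 10 of 11) were lower in this and the other settings. Sinusoidal endothelial cell markers were divided, with 4 of 8 lower and a median of -0.037. The part of these markers in the result was not tested.

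**Figure D4:**
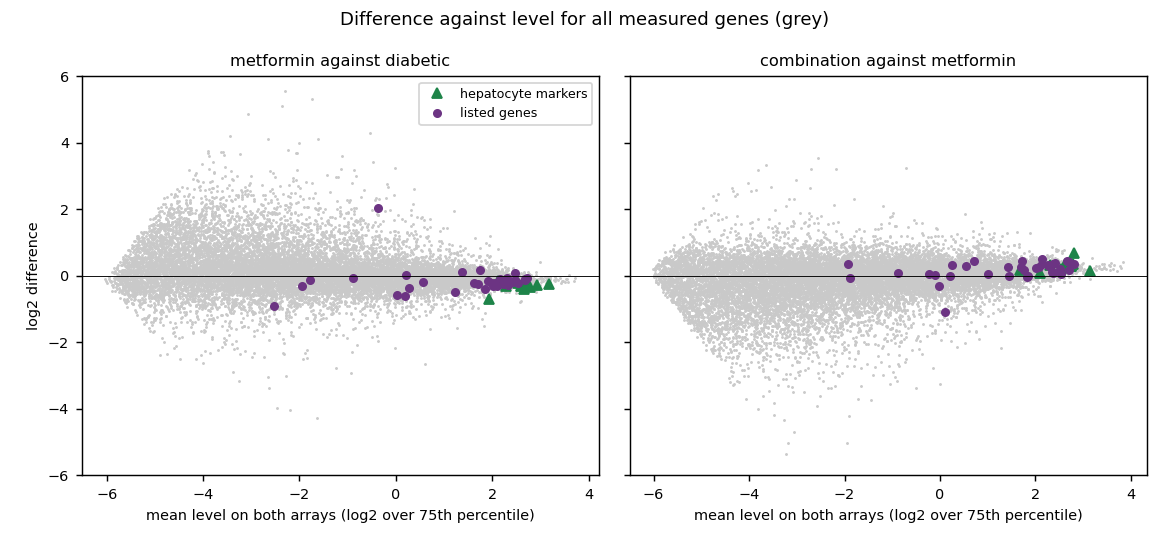
Log2 difference against mean level (log2 over the 75th percentile) for every measured gene in grey, with the listed genes as purple circles and hepatocyte markers as green triangles, for metformin against diabetic and combination against metformin. The listed genes and the hepatocyte markers sit at the bright end, a little below 0 in the first comparison and a little above 0 in the second.

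**Figure D5:**
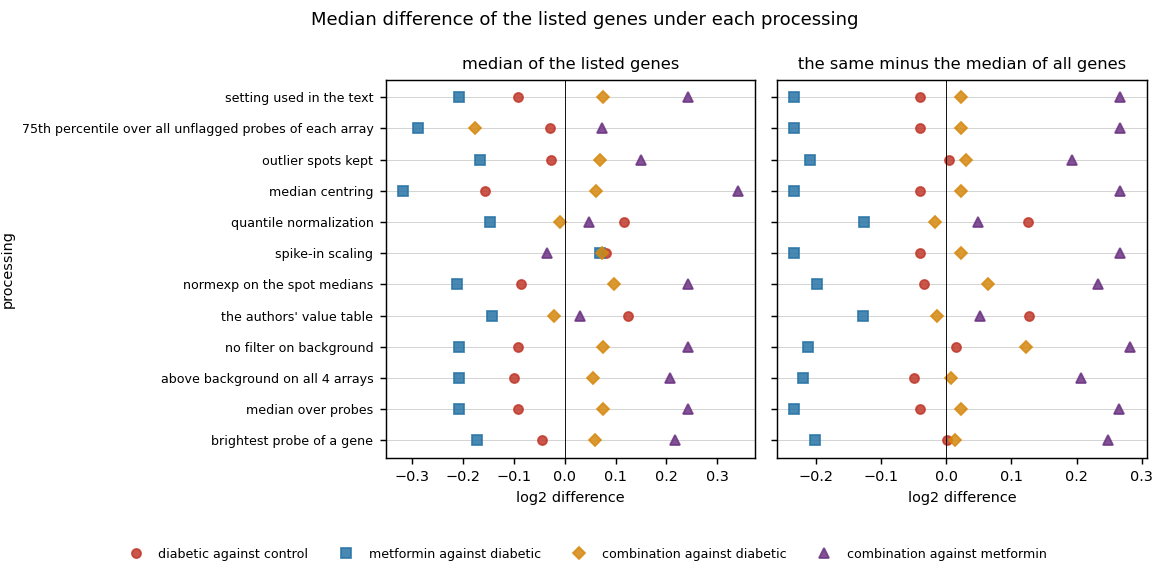
Median log2 difference of the listed genes under 12 processing settings in 4 comparisons, as it stands and after the median of all genes in the same setting is taken off. As it stands, the medians change sign in some settings, spike-in scaling among them. After all genes are taken off, metformin against diabetic stays below 0 and combination against metformin stays above 0 in every setting shown. Settings that only shift a whole array, spike-in scaling and median centring among them, cannot change these values. For combination against metformin they fall to 0.049 with quantile normalization and 0.051 with the authors' value table.

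Both treated arrays were also set against the control array, which these comparisons share with that of the diabetic array. For metformin, 3 of 35 genes passed 1.5-fold upward and 5 downward, where 21.4% and 10.7% of all 13506 genes did, and past 2-fold it was 2 and 2, against 11.1% and 3.53%. Of the 3461 genes above the 75th percentile, where most listed genes lie, 156 were at least 1.5-fold higher and 343 lower. The listed genes' median was -0.29, beside 0.0055 for all genes and -0.22 for those 3461. Spike-in scaling turned the listed genes' median to 0.16. Crat was 2.74-fold, Acot3 2.40-fold and Acot4 1.74-fold higher, and Acsl4, Acsl1, Acsl3, Decr2 and Fabp1 were 2.42-fold to 1.52-fold lower. These counts depend on the scaling. With spike-in scaling 5 listed genes were higher and 1, Acsl4, lower, beside 5690 higher and 449 lower of all genes, where the scale used here had 2890 and 1443. Decr2 and Fabp1 were then at -0.19 and -0.15, and both also fell short of 1.5-fold with quantile normalization and with the authors' value table. For the combination, 7 of 39 passed 1.5-fold upward and 4 downward, where 14% and 12.4% of all 13845 genes did, and past 2-fold it was 5 and 1, against 5.63% and 5.08%. The 7 were Vnn1 (2.52-fold), Acot3 (2.43-fold), Acot4 (2.22-fold), Crat (2.19-fold), Ehhadh (2.08-fold), Acot1 (1.77-fold) and Acot8 (1.51-fold). Pdk4 was 2.60-fold, Acsl4 1.93-fold, Acsl3 1.89-fold and Acsl1 1.81-fold lower there. Of the 3578 genes above the 75th percentile in this comparison, 160 were at least 1.5-fold higher and 269 lower. The listed genes' median was -0.061, beside 0.0009 for all genes and -0.091 for those 3578. Spike-in scaling turned the listed genes' median to 0.11. On the metformin array Pdk4 came near the control, at a log2 difference of -0.29. Without the background filter Crat was no longer past 1.5-fold on the combination array, and on their brightest probes neither were Acsl1 (-0.37) and Acsl4 (-0.48). Acot8 fell short there with each array's own 75th percentile (0.41), median centring (0.52) and normexp on spot medians (0.48). On its brightest probe Acot3 fell short on the metformin array, at 0.56. Ppara differed from control by -0.56 in log2 on the metformin array, which shrank to -0.11 with spike-in scaling, and by -0.50 on the combination array, with a range of -0.69 to -0.33 over the other settings. Hepatocyte markers differed from control by medians of -0.58 (metformin) and -0.26 (combination) in the setting used here. The part of those markers was not tested.

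A further 74 genes of the same pathways, drawn up as a list beside the 42, gave these differences some context. With 59 measured on the diabetic and control arrays, 6 passed 2-fold upward and 2 downward on the diabetic array, where 6.81% and 4.96% of all genes did, so the downward count lies near the background. The Cyp4a genes, fatty acid omega-hydroxylases that PPAR-alpha induces strongly, were the furthest: Cyp4a14 was 27.2-fold, Cyp4a10 16.6-fold and Cyp4a31 10.3-fold higher. Also higher were Cpt1b, the muscle form of the carnitine palmitoyltransferase, by 3.22-fold (on the combination array it was 2.13-fold lower than on the diabetic), and Acot5, a peroxisomal thioesterase, by 3.14-fold. Txnip, a glucose-responsive inhibitor of thioredoxin, was 2.08-fold lower.

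Genes of ketone body transport and use outside the list varied. Slc16a6, a transporter through which hepatocytes release ketone bodies, had levels of 0.01 (control), -1.53 (diabetic), -0.33 (metformin) and -2.38 (combination), 2.92-fold lower on the diabetic array than on the control, 2.30-fold higher on the metformin array than on the diabetic, and lowest on the combination array. Oxct1, which activates ketone bodies for use and is normally scarce in hepatocytes, had -1.23, -1.90, -0.67 and -2.31 in the same order and was 2.35-fold higher on the metformin than on the diabetic array. The metformin array was also the one with the highest lymphocyte markers, whose part in that value was not tested. Against the metformin array the combination array was 4.12-fold lower for Slc16a6 and 3.12-fold lower for Oxct1.

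Among regulators, Ppargc1a and Ppargc1b, coactivators of PPAR-alpha, were 4.71-fold and 3.52-fold higher on the combination array than on the diabetic, and 2.37-fold and 2.65-fold higher than on the metformin array. None of these differences changed sign in the other settings. The 4.71-fold of Ppargc1a includes a probe that was not measured on all 4 arrays. Its other probe gave a smaller difference there, with levels of -0.15 (control), -0.28 (diabetic), 0.20 (metformin) and 1.44 (combination). Cidec, a lipid droplet protein, was 3.68-fold lower on the combination array than on the diabetic and 3.87-fold lower than on the metformin array. Fgf21, a fasting hormone of liver, was 15.2-fold lower on the combination array than on the metformin array, with levels of -4.55 and -0.62, beside -2.13 on the control, and was flagged on the diabetic array. Ucp3, a mitochondrial carrier of the uncoupling protein family, was 2.80-fold higher on the metformin array than on the diabetic. Nudt19, a peroxisomal coenzyme A diphosphatase, was 2.05-fold higher and Acot9, a mitochondrial thioesterase, 2.56-fold lower on the combination array than on the metformin array. Over all 62 further genes measured in that comparison, 3 passed 2-fold upward and 5 downward, where 1.69% and 10.6% of all genes did, so the downward count is no larger a share than among all genes.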

How the data were processed

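Members and gene lists were chosen with earlier results of these data known. Per the file headers, the deposited scanner files hold spot intensities from Feature Extraction 11.5.1.1 (mm9 grid, red channel), already background-corrected; version 10.7 is named in the submitters' processing notes. The authors' deposited value table holds log2 values with the same median, 7.84, in each column. It correlated at 0.999 to 1.00 with log2 intensity, so its scale and direction are known and its normalization is not. All 4 arrays shared 1 slide and scan.

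Outlier spots were left out, and levels were log2 intensity minus the 75th percentile. A probe counted where at least 50% of its spots were well above background. Of 56605 probes, 33767 (59.7%) were named through RefSeq GRCm38.p6. Gene differences averaged probes measured on both arrays. Genes at least 1.5-fold or 2-fold apart were counted, without tests. Levels were printed for listed genes at least 1.5-fold apart and for each role, and other pathway genes where at least 2-fold apart, at most 5 a direction. Some further pathway genes are not reported here. The scripts (Python 3.11.15, limma 3.58.1 for normexp) were tested on simulated data.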

Additional observations from a re-analysis of the deposited data

How the results depend on the processing

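Over the 11 other settings, 122 summary values stayed in place, 29 moved and 3 reversed, where reversed means a turned sign for a value that had exceeded the technical SD. Counting every turned sign, 12 of 66 medians turned: 3 of 11 each for diabetic against control, combination against diabetic and combination against control, and 1 of 11 for each of the others. Reversed were medians under spike-in scaling: metformin against diabetic (0.070), combination against metformin (-0.035) and metformin against control (0.16). Spike-in scaling also moved the medians of diabetic against control to 0.081 and combination against control to 0.11, and the counts of genes at least 1.5-fold lower to 2 for diabetic against control, 1 for metformin against diabetic and 2 for combination against metformin. With the 75th percentile over all unflagged probes of each array, the medians were -0.18 for combination against diabetic (4 genes lower), 0.074 for combination against metformin and -0.25 for combination against control. Keeping outlier spots gave 1 gene higher and 2 lower in combination against metformin. Median centring gave 4 genes lower in metformin against diabetic, 1 higher in combination against metformin and a median of -0.47 for metformin against control. Quantile normalization and the authors' value table gave medians of 0.12 and 0.12 for diabetic against control, 0.048 and 0.029 for combination against metformin, -0.038 and -0.015 for metformin against control, and 0.077 and 0.068 for combination against control. Normexp on spot medians, chosen after seeing the data in place of normexp on spot means, which was not run, gave 1 gene lower in metformin against diabetic, 2 higher and 1 lower in combination against diabetic, and 1 higher in combination against metformin. The brightest probe of each gene gave 2 genes lower in diabetic against control, 1 in metformin against diabetic and 1 in combination against diabetic. The cause of these moves was not tested. Among named genes, 240 values stayed within the technical SD, 65 moved and 0 reversed.

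Scaling shifts all genes: their median for metformin against diabetic lay between -0.085 and 0.30, and the share lower among genes at least 1.5-fold apart was 28.7% as reported, 10.6% with spike-in scaling and 42.1% with quantile normalization. For combination against metformin that share was 72.8%, 91.9% and 60.3%, and for diabetic against control 46.3%, 29.2% and 48.1%. For metformin against control it was 33.3%, 7.31% and 47.1%, with 55.0% after median centring. For combination against diabetic it was 51.3%, and 77.2% with each array's own 75th percentile, and for combination against control 47.0%, 67.7% with that percentile and 28.1% with spike-in scaling. No paired analysis was possible because each group has a single array. The number of arrays limits every value, and a gene on 1 probe rests on 1 spot per array.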

Other observations

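Some of the listed genes could be read only with their flagged spots kept. The 75th percentile was then retaken with such spots counted, so levels here are comparable with each other and lie a little below those above, and they are given as a description of spots that the scanner software marked as non-uniform or as population outliers. Acot2, flagged on all 4 arrays, then had levels of 0.065, 1.0, 1.25 and 1.16 in the order control, diabetic, metformin, combination. The control was the lowest of the 4, as for the thioesterase genes measured without flags. A second Acot4 probe, also flagged on all 4, read -0.90, -0.18, -0.29 and -0.62 in the same order, 0.72 higher on the diabetic array than on the control. On the combination array it was 0.44 lower than on the diabetic and 0.28 above the control. The unflagged Acot4 probe instead had its diabetic and combination levels close together. Vnn1 read -2.42, -0.21, 0.11 and -1.08 in the same order, with only its diabetic and metformin spots flagged, so the control was again the lowest.

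Ehhadh read 1.70 on the metformin array with its flagged spot kept, beside 0.44 on the control, 1.24 on the diabetic and 1.5 on the combination array. Acadm, flagged on 3 arrays, read 1.71, 1.78, 1.69 and 2.08, and Crot 2.06, 2.04, 2.21 and 2.07, both within the narrow range of the core enzymes. The dimmer probe of Hadhb, unflagged only on the control array, was outside that range, at -0.057, 0.62, -0.36 and 0.66. It differed by 0.68 between the diabetic and control arrays and by -0.98 between the metformin and diabetic arrays, unlike the gene's brighter probe.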
